A study of Hypsibius dujardini with 126 samples.

Results

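Later organ formation was compared with early organ formation in embryos of the tardigrade Hypsibius dujardini, each sequenced singly. The species is a microscopic water animal with stubby clawed legs. The comparison set embryos labelled 70-79 h (embryos 49-58) against embryos labelled 47-56 h (embryos 26-35), 1 embryo per hour and 10 embryos per window. The rule for these embryos used their numbers and label times. It kept those with more than 63404 transcript counts, which is 10% of the median over all 126 embryos of the series, and with at most 10% of their counts on 1 transcript. It left 8 embryos at 70-79 h (embryos 50-57, labelled 71 to 78 h) and all 10 embryos at 47-56 h.

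All embryos came from cultures of the same species, and the labels name no treatment. Per the labels' protocols, each was freed from the shed cuticle of its mother, watched until the 2-cell stage, held at 20 °C until its hour and then frozen. Fertilization is the zero of the time tag and the 2-cell stage that of the growth protocol, so the start of the clock is uncertain, and hours are given as labelled. RNA was measured by CEL-Seq, which reads a short piece at the 3′ end of each polyadenylated RNA, marked by embryo with a barcode. The labels do not say which embryos shared a mother, so a p-value here sets a difference against the spread of these embryos only. The labels give hours and no stage names, and no table names the genes behind the transcript IDs, so the organ-formation stages could not be checked against marker genes.

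In tardigrades, gastrulation is followed by elongation of the body and by its division into segments. The legs, the ganglia of the nervous system, the muscles and the feeding apparatus are then laid down, and the organs mature and the cuticle and claws form before the animal hatches. A gene that is switched on for a single step of this sequence gives a wave of RNA, whereas a gene of a mature tissue stays on to hatching. In whole embryos, fewer cells of a type and less RNA per cell cannot be told apart.

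The kept embryos had 306329 to 2400687 transcript counts at 70-79 h (median 884963.5) and 609737 to 1756168 at 47-56 h (median 1038974.5). Embryos 50, 51 and 52 were the shallowest, with 353943, 500395 and 306329 counts. The 2 embryos left out were embryo 49 (70 h), with 72.5% of 32609 counts on 1 transcript, and embryo 58 (79 h), with 33.2% of 76974 counts on 1 transcript. Embryo 31 (52 h) had 92.87% of its reads unaligned, against 41.02 to 48.98% in the other 9 embryos of 47-56 h.

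Embryo 55, labelled 76 h, stood apart from the other later embryos. Its mean Spearman correlation across genes was 0.257 with the 7 other embryos of 70-79 h and 0.400 with the 10 embryos of 47-56 h. It was 0.635 with the 37 kept embryos of embryos 79-126, labelled up to 46 h, and 0.563 with the 15 of 0-18 h in embryos 1-25. Among single embryos it was highest, at 0.824, 0.813 and 0.812, with those labelled 43, 45 and 44 h. Those 3 belong to embryos 79-126, another stretch of embryo numbers, whereas embryos 26-78 run in hourly order through both windows. The RNA of embryo 55 thus goes against its label, and the cause was not tested. Many results below are therefore given with and without it, and the others include it unless stated.

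Genes differed strongly between the windows in both directions. Of 12746 transcript models, each treated as a gene, 5892 passed the filter on low counts and were tested with edgeR's quasi-likelihood test. At an adjusted p under 0.05, 363 genes differed (6.16% of those tested), of which 131 were higher at 70-79 h (2.22%) and 232 were lower (3.94%). The 131 higher genes had a median log2 change of 5.03 (1.05 to 12.65), and the 232 lower genes had a median of -5.41 (-12.98 to -1.21), against -0.17 over all genes tested. With RLE in place of TMM scaling, that overall median was -0.01.

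The typical higher gene had a low level at 47-56 h and a high one at 70-79 h. Both lists were chosen for a difference between these windows in the same embryos. The levels below thus describe the lists and carry no test. Levels are given as CPM, the counts of a gene scaled to a common total of transcript counts. They are not scaled by length, since CEL-Seq reads near the end of each RNA. The median over the 131 higher genes of the window mean was 340.8 CPM at 70-79 h and 12.5 CPM at 47-56 h. Over the 232 lower genes it was 6.26 CPM at 70-79 h and 293.5 CPM at 47-56 h. Of the higher genes, 129 averaged at least 50 CPM at 70-79 h, and of the lower genes, 219 did so at 47-56 h. Most called genes thus averaged at least 50 CPM in the window where they were high. The low-count filter and the call both favour such genes. No share of all tested genes is given beside these counts, so they describe the lists only.

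**Figure D1:**
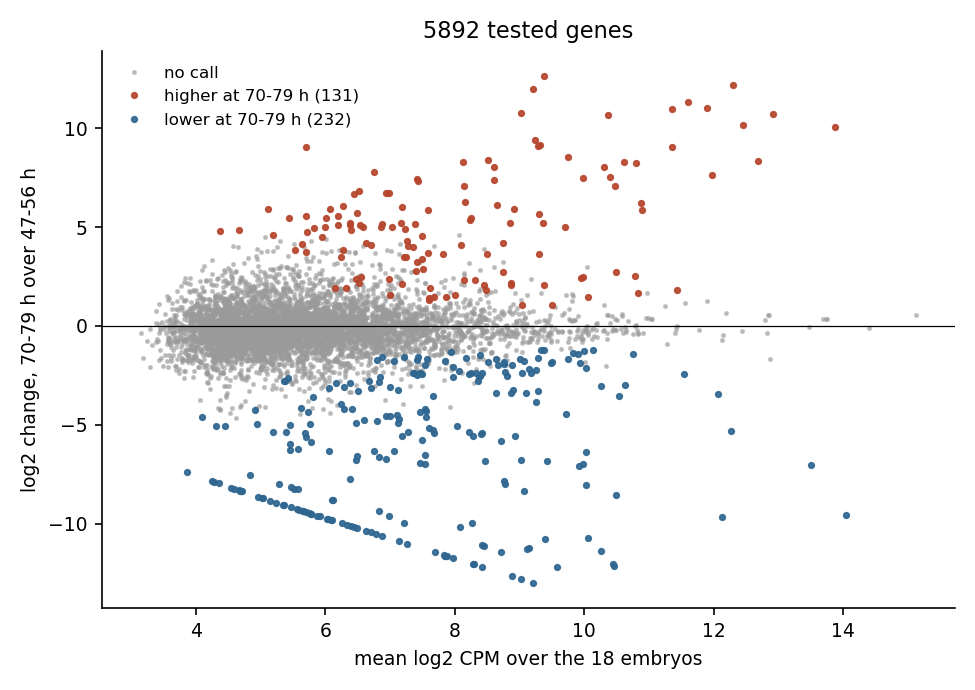
The log2 change of 70-79 h over 47-56 h is plotted for each of the 5892 tested genes against its mean log2 CPM over the 18 embryos. The 131 genes called higher and the 232 called lower lie far from 0, and most genes called in neither direction lie near it.

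Leaving out embryo 55 moved the count of calls by more than 1.5 times. Without it, edgeR called 626 of 6227 genes (10.1%), 268 higher and 358 lower. These included 130 of the 131 higher and all 232 lower genes called with it. The number of genes on the rising side depended most on the filter. With no filter on low counts, 1434 genes were called, 1046 higher and 388 lower, and with all 5 windows of embryos 26-78 in 1 fit, 1308 of 9469 genes (13.8%) were called, 933 higher and 375 lower. The second of these changed the filter as well as the embryos. Lower genes outnumbered higher ones with any single embryo left out and with all 20 embryos in.

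With embryo 55 included, complete separation of the windows was more common for falls. In 116 tested genes (1.97%) every later embryo lay below every early one, and 112 of these were called. In 10 tested genes (0.170%) every later embryo lay above every early one, and 9 of these were called. Among the higher genes, embryo 55 was the only embryo in the way of a complete separation in 63 of 131. Among the lower genes it was the only one in 14 of 232. The difference between rises and falls in complete separation thus rested largely on embryo 55.

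The share of counts on the changed genes was taken in each embryo. The 131 higher genes took 19.71 ± 8.94% of transcript counts at 70-79 h (SD, n = 8; lowest 2.229, median 23.78, highest 27.0) and 0.968 ± 0.102% at 47-56 h (n = 10; lowest 0.795, median 1.01, highest 1.093). The 232 lower genes took 1.375 ± 0.473% at 70-79 h (lowest 0.991, median 1.214, highest 2.443) and 19.87 ± 4.50% at 47-56 h (lowest 11.29, median 20.55, highest 24.87). The windows did not overlap in either share, and embryo 55 was the lowest later embryo for the higher genes and the highest for the lower genes. These shares describe genes chosen on the same embryos, change with the number of genes called and carry no test.

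Hour by hour, the fall and the rise overlapped in time. The share on the lower genes was lowest at 47 h within the early window, at 11.29%, was highest at 57 h, at 25.03%, and was still 14.96% at 64 h and 3.333% at 69 h. The share on the higher genes was 1.258% at 57 h and 2.149% at 62 h, then 3.96% and 6.313% at 63 and 64 h and 19.35% at 69 h. It reached 24.23% at 71 h and peaked with 27.0% at 73 h, and the last embryos of the window, of 77 and 78 h, had 19.66 and 10.0%. Embryo 55 (76 h) lay at 2.229%. The share on the higher genes thus rose before the 70-79 h window, was highest in it and was lower at its end. These genes were chosen for being high in the embryos of 70-79 h, which favours a peak there. No embryo of embryos 26-78 was kept at 60, 61 or 65 to 68 h, so the course between 64 and 69 h was not seen.

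After the window the share on the higher genes was lower, which the choice of genes also favours. At 80-89 h the higher genes took 4.023 to 5.26% of counts (n = 6), and at 90-99 h 4.004 to 7.862% (n = 9). The lower genes took 1.093 to 1.639% at 80-89 h and 1.151 to 1.514% at 90-99 h. Before the early window, the 7 embryos at 40-46 h, which belong to embryos 79-126, had 1.04 to 1.807% on the higher genes and 1.328 to 4.517% on the lower genes. The stretch of embryo numbers changes between 46 and 47 h, so the onset of the lower genes and the change of stretch cannot be told apart there. Within 47-56 h alone, all in 1 stretch, the share on the lower genes was 11.29 and 13.45% at 47 and 48 h, against 19.01 to 24.87% at 49 to 56 h.

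**Figure D2:**
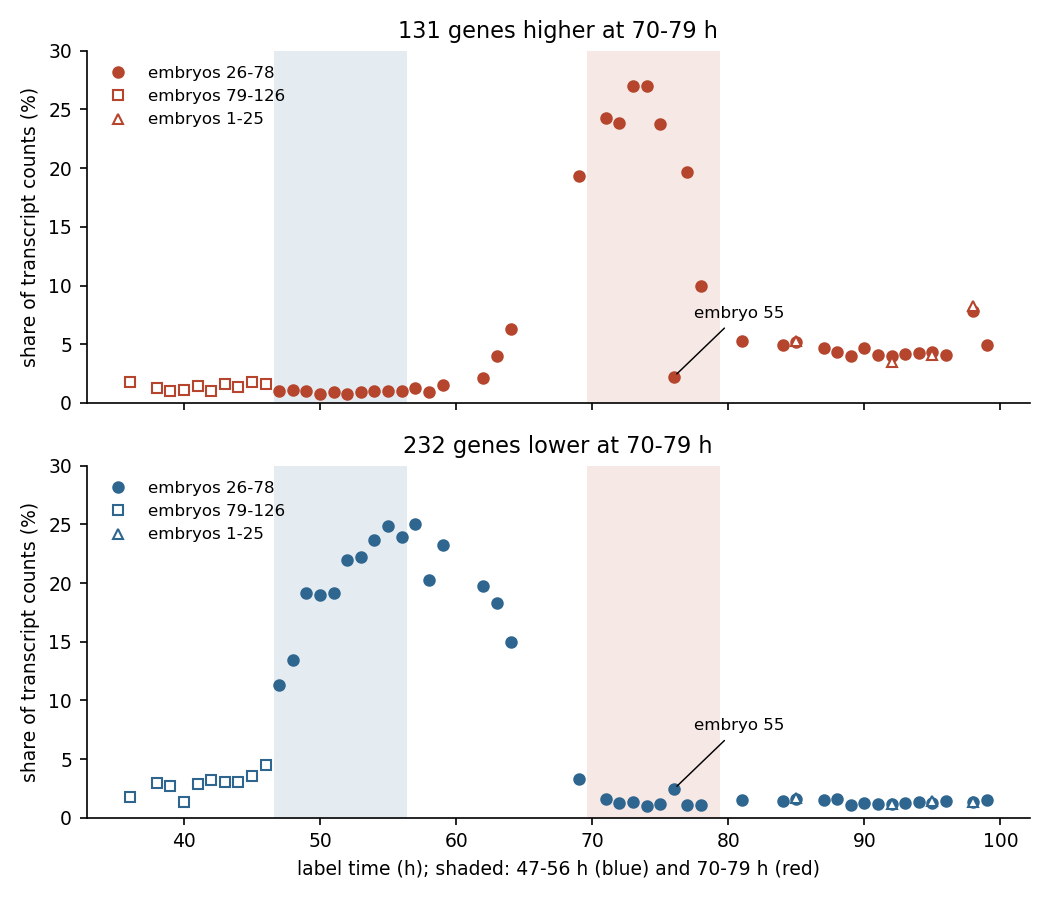
The share of transcript counts (%) on the 131 genes higher and the 232 genes lower at 70-79 h is plotted for each kept embryo from 36 h on against its label time (h), with different symbols for the stretches of embryo numbers and the 2 windows shaded. The higher genes peak at 27.0% at 73 h, embryo 55 lies at 2.229% at 76 h, and the lower genes peak at 25.03% at 57 h.

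Embryo 55 lay near the early window for the rising genes and between the windows for the falling ones. Since the lists above were chosen with it, the lists of 268 and 358 genes chosen without it were used for this. Embryo 55 was on the early side of the midpoint between the window means in 249 of the 268 higher genes (92.9%) and had no count at all in 159. It was on the early side in 134 of the 358 lower genes (37.4%). The other 7 later embryos were on the early side in 2 to 57 of the higher and in 7 to 34 of the lower genes.

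The share on the 268 higher genes was 2.532% in embryo 55 and 17.14 to 37.32% in the other later embryos, against 2.053 to 3.368% at 47-56 h. The share on the 358 lower genes was 8.331% in embryo 55 and 1.708 to 2.469% in the others, against 15.91 to 27.66% at 47-56 h. Embryos 79-126 had 4.558 to 13.25% on the lower genes. The share of embryo 55 on the 131 higher genes, 2.229%, was above all embryos of 47-56 h. Those genes were chosen with embryo 55 among the later embryos, which favours this. On the 268 genes chosen without it, its share lay inside the range of 47-56 h.

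The 2 IDs with the largest rises and the 2 with the largest falls are described in every embryo. They were taken among called genes that averaged 50 CPM or more in the window where they were high, were found in all but at most 1 of its embryos, and kept their call without embryo 55. No gene name or function can be given for them.

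HD_v1_tr_12654 was found in all 8 later embryos, at 13.28 to 4232 CPM (lowest to highest, median 248.5), against a single count, 1.639 CPM, in 1 of 10 early embryos. The 4 highest of the later embryos were those at 74, 75, 77 and 78 h, with 943.8, 317.4, 4232 and 2336 CPM, and the lowest was embryo 55. Over the pooled counts of each window, the ratio was 17610 (95% exact Poisson interval 3161 to 695800), and edgeR's log2 change was 12.65 (SE 1.32, adjusted p = 5.09e-07). The Poisson interval covers the counting of pooled reads and not the spread between embryos. Embryo 56 (77 h) gave 10160 of the 14238 later counts. The windows did not overlap. Without embryo 55 the change was 12.86 (adjusted p = 4.84e-08). Of the 7 embryos of 57-69 h, the last, at 69 h, was the only one with a count (27.91 CPM), and by 90-99 h the ID had counts in 2 of 9 embryos, at up to 3.557 CPM.

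HD_v1_tr_10997 was among the most abundant RNAs of the later window, at 217.8 to 23130 CPM (median 7437), against 0 to 13.11 CPM in early embryos (median 0.460), where 5 of 10 had a count. Embryo 55 was again the lowest later embryo and lay above all early embryos. The ratio of pooled levels was 4794 (95% exact Poisson interval 3272 to 7340), and edgeR's log2 change was 12.17 (SE 1.24, adjusted p = 3.52e-07). Here too the interval leaves out the spread between embryos, and embryo 56 gave 55529 of the 100759 later counts. The level had reached 342.4 CPM at 69 h, was highest at 77 h and lay at 32.74 to 231.1 CPM at 80-89 h and 27.04 to 188.2 CPM at 90-99 h. In the 4 embryos of embryos 1-25 labelled 85 to 98 h, neither this ID nor HD_v1_tr_12654 had a count. The ID at 80-99 h thus differed between stretches of embryo numbers with the same label hours.

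HD_v1_tr_08729 had no count in any of the 8 later embryos and 27.88 to 2089 CPM in all 10 early embryos (median 934.7). It was lowest at 47 h and highest at 55 h. Against the limit that a count of 0 allows, 3 counts pooled over the later window or 0.372 CPM, it was at least 2844-fold lower, and edgeR called it lower with adjusted p = 1.71e-06. The fitted log2 change of -12.98 (SE 1.17) depends on the prior count and is no bound. The ID was still at 266.1 CPM at 62 h and had no count at 63 h or later in embryos 26-78. It was also an RNA of the first hours, with a count in 14 of 15 embryos of 0-18 h in embryos 1-25 (179.6 ± 182.4 CPM, SD). In embryos 79-126 it was at 776.8 to 994.5 CPM at 28 to 31 h and at 0 to 5.563 CPM at 38 to 46 h.

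HD_v1_tr_03612 also had no count in the 8 later embryos and 106.6 to 1468 CPM in the 10 early embryos (median 1055). It was lowest at 47 h. It was at least 2786-fold lower at 70-79 h (adjusted p = 1.25e-07, edgeR; fitted log2 change -12.80, SE 0.916). The ID was at 115.3 CPM at 62 h and at 0 or 1.264 CPM at 63 to 69 h. Both falling IDs thus had counts in the embryo of 62 h and 0 in that of 63 h. With 1 embryo per hour, the speed of the fall cannot be read from this. Neighbouring embryos also differed before the fall, with HD_v1_tr_08729 at 1130, 246.6 and 1129 CPM at 57, 58 and 59 h. HD_v1_tr_03612 had a count in 1 of 15 embryos of 0-18 h, so the pair differed in the first hours. A single embryo at 85 h had 534.7 CPM of it, with 0 in the other embryos of 80-99 h.

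**Figure D3:**
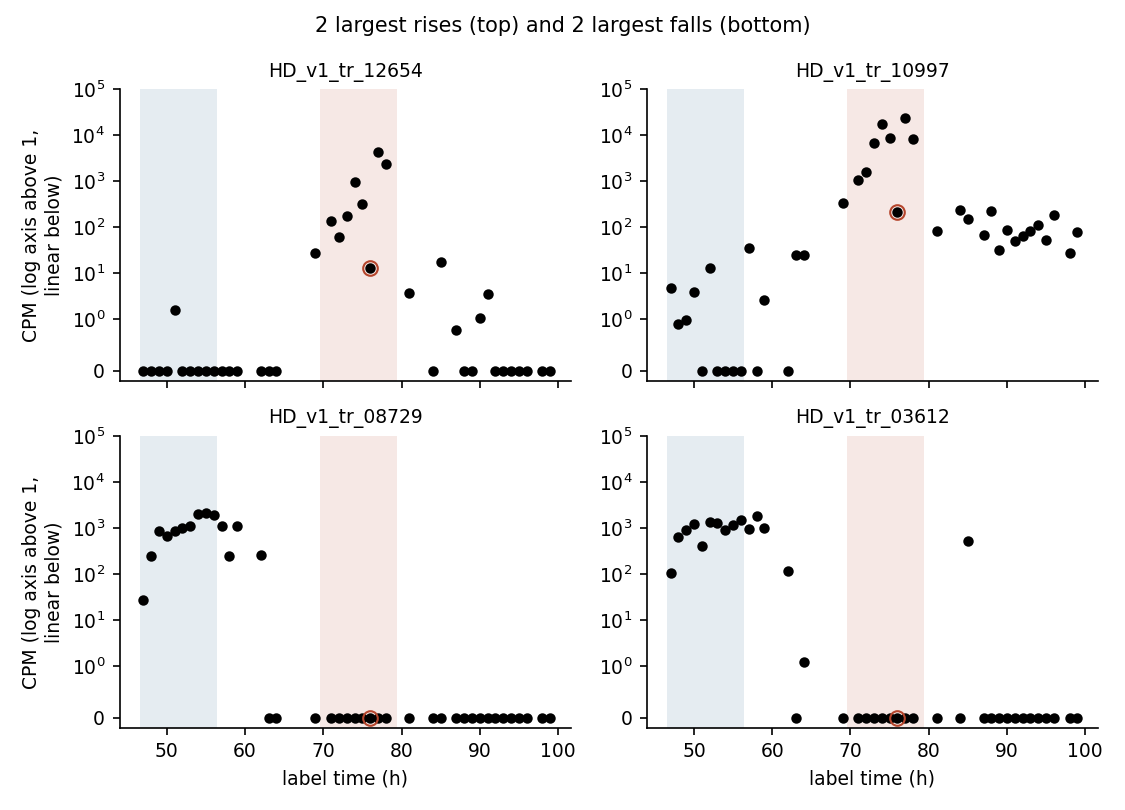
CPM of the 4 IDs is plotted for each kept embryo against label time (h), on an axis that is logarithmic above 1 CPM and linear below; the windows of 70-79 h (red) and 47-56 h (blue) are shaded and embryo 55 is ringed. The rising IDs HD_v1_tr_12654 and HD_v1_tr_10997 peak at 77 h, at 4232 and 23130 CPM, and the falling IDs HD_v1_tr_08729 and HD_v1_tr_03612 lie at 0 in all 8 embryos of 70-79 h.

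Genes that were silent in 1 window were counted in both directions. Of the 232 lower genes, 55 had no count in any later embryo, and 25 of these had a count in all 10 early embryos. Of the 131 higher genes, 0 had no count in every early embryo. This difference lies partly in the filter and in embryo 55. The filter needed enough counts in 8 embryos, so a gene silent at 47-56 h could pass only with counts in all 8 later embryos, and 0 genes had that pattern. In the file, 21 genes had no early count and counts in 7 of 8 later embryos, and in 18 of these embryo 55 was the missing one. Without embryo 55, 14 genes silent in all early embryos could be tested, and all 14 were called higher; 108 called lower genes then had no count in the 7 later embryos. Setting the 55 silent genes to their bound of 3 pooled counts left the median of the lower genes at -5.41.

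Most changed genes had counts in both windows, but most were not found in every embryo, and the same held for all tested genes. A count was found in all 8 later embryos in 62 of the 131 higher genes, and in all 10 early embryos in 177 of the 232 lower genes. In all 18 embryos it was found in 33 of 131 higher and 54 of 232 lower genes, against 1026 of all 5892 tested. Of 1026 tested genes with a count in all 18 embryos, 833 had a fitted log2 change within 1 in either direction. Most genes of both lists thus lacked a count in at least 1 embryo, as did most genes tested. Of the 131 higher genes, embryo 55 had a count in 67, against 124 to 131 in each of the other later embryos.

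The course of the changed genes outside the 2 windows was described by the midpoint between their window means on the log2 CPM scale. Of the 131 higher genes, 44 (33.6%) were on the 70-79 h side already at 57-69 h. At 80-89 h 67 (51.2%) were on that side, and at 90-99 h 57 (43.5%). Among the lower genes, 128 of 232 (55.2%) had crossed by 57-69 h, 212 (91.4%) were on it at 80-89 h and 218 (94.0%) at 90-99 h. Falls thus lasted to the end of the course in most genes, whereas 74 of the 131 rises had gone back by 90-99 h. The lists chosen without embryo 55 gave 26.9, 50.4 and 43.7% of 268 higher genes and 55.3, 88.0 and 92.5% of 358 lower genes for the same 3 windows.

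The rises that went back carried, on average, most of the counts on the higher genes at 70-79 h. The 74 higher genes that were back on the 47-56 h side at 90-99 h took 16.58 ± 8.70% of counts at 70-79 h (SD, n = 8). They took 0.403 ± 0.067% at 47-56 h (n = 10). The later values ran from 0.307 to 23.45%, so the lowest later embryo lay below the early mean. The 57 that stayed on the 70-79 h side took 3.128 ± 0.642% at 70-79 h and 0.565 ± 0.066% at 47-56 h. Among the transient genes, 40 of 74 (54.1%) averaged under 1 CPM in the 15 embryos of 0-18 h, against 16 of 57 lasting genes (28.1%). The lists were chosen on the 47-56 h and 70-79 h embryos, which favours a peak there. With that limit, the highest CPM of any embryo from 47 to 99 h lay at 70-79 h in 87 of the 131 higher genes (66.4%). For the lower genes it lay at 47-56 h in 176 of 232 (75.9%) and at 57-69 h in 53.

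**Figure D4:**
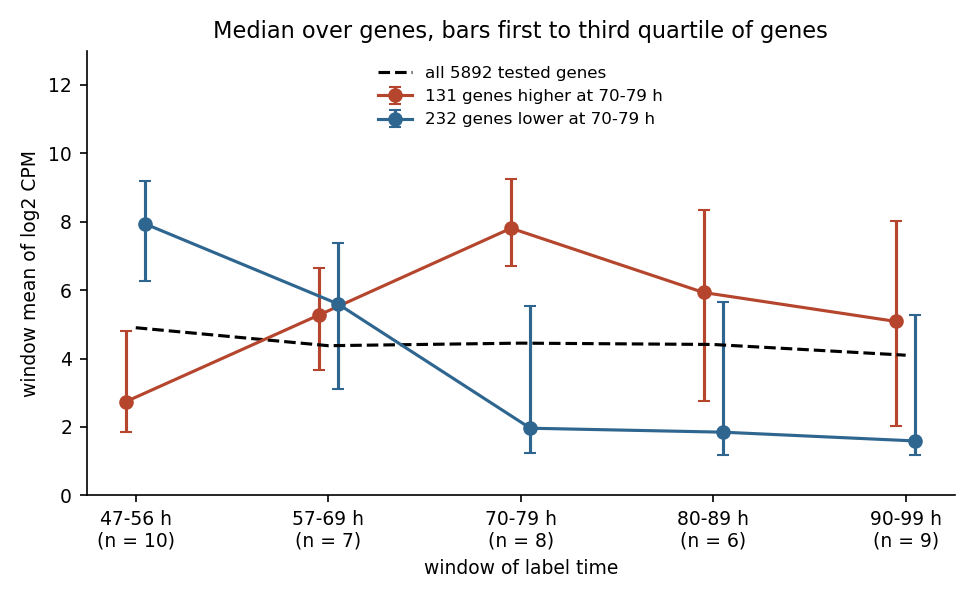
The window mean of log2 CPM is plotted for 5 windows of label time in embryos 26-78, as the median over genes with bars from the first to the third quartile of genes. The medians of the 131 higher genes were 2.74, 5.27, 7.81, 5.93 and 5.08, those of the 232 lower genes 7.93, 5.60, 1.96, 1.85 and 1.59, and those of all tested genes 4.90, 4.38, 4.45, 4.41 and 4.10.

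The pace of change along embryos 26-78 was compared in 1 edgeR fit over 9469 genes. It called 533 genes (5.63%) for 57-69 over 47-56 h, 373 higher and 160 lower. For 70-79 over 57-69 h it called 628 (6.63%), 410 higher and 218 lower. For 80-89 over 70-79 h it called 982 (10.4%), 648 higher and 334 lower. For 90-99 over 80-89 h it called 10 (0.106%), all lower, with 661 at an unadjusted p under 0.05. Consecutive steps share a window, the windows hold 6 to 10 embryos, and the counts were not tested against each other. Each of the 3 steps that border the 57-69 h or the 70-79 h window had more calls than the last one. Without embryo 55 the steps gave 587, 608, 944 and 10 calls, in the same order.

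More of the genes that changed than of all tested genes were scarce in the first hours of development. In the 15 embryos of 0-18 h in embryos 1-25, 56 of the 131 higher genes (42.75%) and 116 of the 232 lower genes (50%) averaged under 1 CPM, against 857 of all 5892 tested (14.55%). At least 50 CPM was reached there by 25 higher genes (19.1%) and 46 lower genes (19.8%), against 2649 of all tested (45.0%). Many of the genes that fell after 47-56 h were thus themselves scarce in the first 18 h. The difference from all tested genes was not tested. A called gene could pass the filter through 1 window alone, which favours genes scarce outside it. The embryos of 0-18 h also belong to another stretch of embryo numbers than the 2 windows. The shares on the 2 lists in those 15 embryos were 0.571 to 1.581% on the higher and 1.232 to 4.834% on the lower genes.

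Embryos 1-25 gave a comparison with no embryo in common, over a wider span: 4 embryos of 80-98 h over 15 of 0-18 h. edgeR called 4190 of 9589 genes there (43.7%). Of the 131 higher genes, 49 could not be tested there, among them HD_v1_tr_12654 and HD_v1_tr_10997, and of the 232 lower genes 127 could not. A gene scarce at 0-18 h could be tested only through counts at 80-98 h, so the genes with at least 50 CPM at 0-18 h are given. Of 25 such higher genes, 17 (68%) were higher at 80-98 h than at 0-18 h and 0 lower, against 11.2% higher and 27% lower of the 2649 such genes among all tested at 70-79 over 47-56 h. Of 46 such lower genes, 14 (30.4%) were lower and 2 (4.35%) higher. The lower genes were thus near the background in their share of falls. These are counts of genes chosen on other embryos and carry no test of the list.

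The most abundant RNAs were partly exchanged. The 100 genes with the highest mean CPM at 70-79 h and at 47-56 h had 49 genes in common, and 37 without embryo 55. Of the 100 at 70-79 h, 29 were called higher, against 2.22% of all tested genes, and of the 100 at 47-56 h, 30 were called lower, against 3.94%. The ranking used the same window means as the calls, so nothing is read from these shares. The 10 most abundant genes of each window had 6 in common.

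Whole-embryo measures differed less than single genes did. Thinned to 306329 counts, later embryos had 5681 ± 1487 detected genes and early embryos 6081 ± 607 (SD, n = 8 and 10; exact permutation test, 2-sided, p = 0.448). The later range, 3387 to 7275, enclosed the early range, 5156 to 6953. The 10 most abundant genes of each embryo took 20.25 ± 3.03% of its counts at 70-79 h and 18.7 ± 3.60% at 47-56 h (exact permutation p = 0.34). Transcript counts per ERCC spike-in count, a gauge of RNA per embryo where equal amounts of spike-in were added, were 2.54 ± 0.30 at 70-79 h and 2.33 ± 0.32 at 47-56 h on the log2 scale (exact permutation p = 0.176). The windows overlapped in all 3 measures, and none of the differences passed the threshold. Without embryo 55 none passed either (exact permutation p = 0.415, 0.142 and 0.125, in the same order).

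Within 47-56 h, the counts became concentrated on fewer genes with age. The share on the 10 most abundant genes had a Pearson r of 0.936 with label hour over the 10 embryos (permutation p = 0.00018, adjusted over 10 relations 0.0018) and a Spearman rho of 0.903 (permutation p = 0.00086, adjusted 0.0086). Without the embryos farthest from the median hour, r was 0.91. The share was 14.84 and 13.89% at 47 and 48 h, against 24.27 and 24.08% at 55 and 56 h. Over the 8 embryos of 70-79 h, detected genes had r = 0.812 with hour (permutation p = 0.019) and total counts had r = 0.736 on the log10 scale (permutation p = 0.0414), but neither passed the adjustment (0.095 and 0.138). The 3 shallowest embryos are also the 3 youngest kept there, so depth and hour cannot be told apart.

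Single genes were also fitted against hour inside each window. At 47-56 h, 61 of 7427 genes (0.821%) changed with hour, 50 rising and 11 falling, by edgeR's quasi-likelihood test. At 70-79 h, 0 of 6333 genes did (0%), with 410 at an unadjusted p under 0.05 and a smallest adjusted p of 0.0948. Leaving out embryo 55 gave 19 genes there, 16 rising and 3 falling. The early count was 8 without embryo 35 (56 h), 9 without embryo 34 (55 h), 15 without embryo 27 (48 h), 30 without embryo 30 (51 h) or embryo 33 (54 h) and 40 without embryo 29 (50 h). It therefore depended on several single embryos. Leaving out embryo 26, 28, 31 or 32 gave 44 to 48.

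Each embryo was placed between the windows by its mean Spearman correlation with later embryos (other than embryo 55) less that with early embryos. This difference had a median of 0.196 at 70-79 h without embryo 55 (0.158 to 0.224, n = 7) and -0.256 at 47-56 h (-0.286 to -0.166, n = 10). Its medians were -0.0566 at 57-69 h, 0.158 at 80-89 h and 0.137 at 90-99 h. Embryo 55 had -0.143. The difference is built from the embryos of 47-56 h and 70-79 h, which favours these windows lying at its ends. It also favours lower values at 80-89 h and 90-99 h than at 70-79 h. The embryos of 57-69 h had no part in it, and their median lay between those of 47-56 h and 70-79 h. Single embryos were not in strict order within a window, and embryo 55 lay on the early side. Embryos of 70-79 h correlated with each other at a mean of 0.463, against 0.578 among those of 47-56 h (difference -0.116, exact permutation p = 0.0193). This difference rested on embryo 55: without it the means were 0.531 and 0.578 (difference -0.047, exact permutation p = 0.328).

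**Figure D5:**
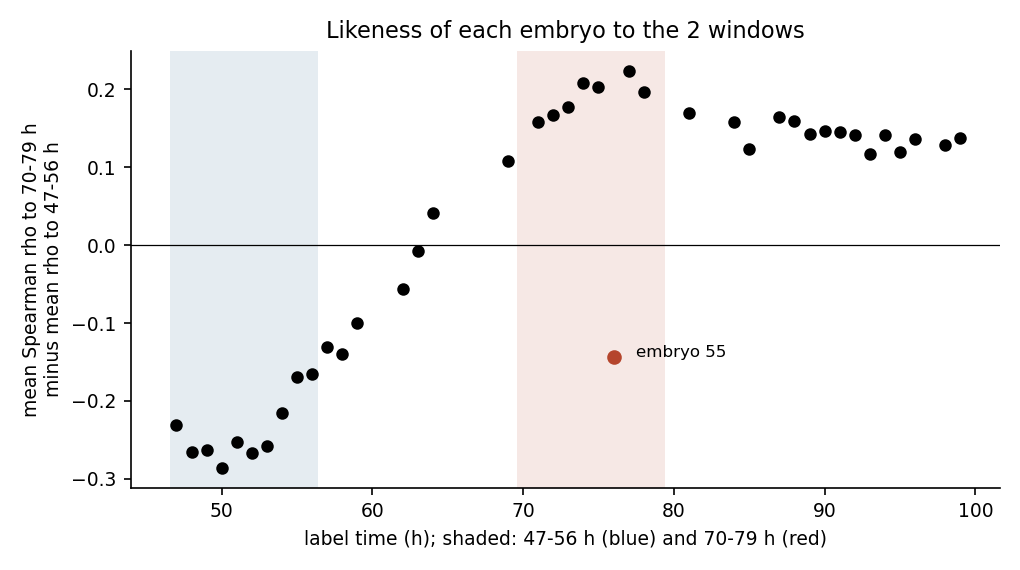
The mean Spearman correlation with the embryos of 70-79 h less that with the embryos of 47-56 h is plotted for each kept embryo of embryos 26-78 against label time (h). The points cross 0 between 63 and 64 h, and embryo 55 lies at -0.143 at 76 h.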

How the data were processed

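Whole-embryo RNA was measured by CEL-Seq in 126 single embryos. The authors deposited read counts per transcript model, not normalized and with no molecular identifiers. An interval or floor thus covers the counting of reads alone, not repeated reads of 1 molecule or the spread between embryos. The submitters' processing notes name HTSeq 0.5.4p3, Bowtie2 2.1.0 and CASAVA 1.8. The genome build and annotation were not given in the sources used here. Spike-ins and reads outside any transcript model (medians of 5.378% of reads at 70-79 h and 6.875% at 47-56 h) or unaligned (47.67 and 46.55%) stayed out of library sizes and tests.

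The windows, embryos and lists were chosen with earlier results of these data known. Differences were tested on the counts as deposited with edgeR 4.0.16 (R 4.3.3): TMM scaling, default low-count filter, quasi-likelihood test, Benjamini-Hochberg adjustment over all genes tested, threshold 0.05. Windows were fitted alone, with no covariate; 1 embryo per hour means that an hour has no replicate. Log2 CPM used a prior count of 2. Single values per embryo were compared by exact permutation over 43758 arrangements, and correlations with hour over 10 embryos by 100000 permutations. Floors were 3 counts pooled over a window, and confidence levels 95%. Named IDs were limited to 2 rises and 2 falls, the largest called changes that averaged 50 CPM or more in the window where the ID was high, were found in all but at most 1 of its embryos and held without embryo 55. Gene lists were not applied and no sequence is shown, since the files pair no ID with a name and no reference was used. Tests were tried on simulated counts. Alternatives used RLE or spike-in scaling, DESeq2 1.42.0, limma 3.58.1, other filters, embryos and fits, and equal depth. Measures and plots used Python 3.11.15 with scipy 1.17.1, matplotlib 3.10.9, pandas 2.3.3 and numpy 2.4.6.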

Additional observations from a re-analysis of the deposited data

Results flagged for a closer look

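A sample was singled out when it lay far from the others of its window by Dixon's test; 22 groups of values were checked, and chance marks about 1 group in 20. Embryo 55 (76 h) had a likeness to 70-79 h less likeness to 47-56 h of -0.1428, against 0.1205 to 0.1827 in the other 7 later embryos. Its share of counts on the genes lower at 70-79 h was 2.443%, against 0.9914 to 1.605% in the others. Embryo 31 (52 h) had 92.87% of reads unaligned, against 41.02 to 48.98% in the other 9 early embryos. HD_v1_tr_12654 stood at 1.639 CPM, a single count, in embryo 30 (51 h) and at 0 in the other 9 early embryos. HD_v1_tr_10997 stood at 13.11 CPM in embryo 31, against 0 to 4.92 CPM in the other early embryos.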

How the results depend on the processing

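Of 392 values under alternatives, 345 kept their direction and their side of the threshold or stayed within the stated range, 43 moved further, 4 lost their call, and no called value changed sign. Genes called at 70-79 over 47-56 h (363; 131 higher, 232 lower) became 611 (260 and 351) with DESeq2, 758 (200 and 558) with limma, 1434 (1046 and 388) with no filter, 1308 (933 and 375) with 5 windows in the fit and 626 (268 and 358) without embryo 55. With all 20 embryos 59 were higher. Among settings chosen after seeing the data, a filter met in 5 embryos gave 641 (326 higher), and without embryo 55 RLE scaling gave 665 (313 and 352), DESeq2 970 (420 and 550) and limma 1211 (416 and 795). Leaving out each embryo in turn gave 282 to 626 genes, 100 to 268 higher and 181 to 358 lower. Genes changing with hour numbered 0 to 22 at 70-79 h (22 without embryo 51, 19 without embryo 55, 5 without embryo 54, 4 without embryo 56, 1 without embryo 53) and 8 to 48 at 47-56 h, all from settings added later. The difference in correlation between embryos ranged from -0.145 to -0.047 and missed the threshold without embryo 50 (-0.105, exact permutation p = 0.0556), 52 (-0.105, exact permutation p = 0.0505) or 55 (-0.047). 2 values that passed no test changed sign: the difference in log2 transcript counts per spike-in count was 0.2055 with the kept embryos and -0.6969 with all 20, and likeness and hour at 70-79 h had r = -0.0862 with embryo 55 and 0.795 without it (permutation p = 0.0357, adjusted 0.078). The causes were not tested. The low-count filter shows by its construction why genes silent at 47-56 h were not tested. Genes near 1 CPM are at the limit of depth in the shallowest embryos, which had 306329 counts at 70-79 h and 609737 at 47-56 h. No paired analysis was possible because the windows share no embryo number.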

Other observations

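A single ID stood out at 98 h, in both stretches of embryo numbers that reach that hour. The 131 higher genes took 8.231% of counts in embryo 25 and 7.862% in embryo 77, both labelled 98 h, against 3.50 to 5.29% in the 3 other embryos of 80-98 h in embryos 1-25 and 4.00 to 5.26% in the 14 other embryos of 80-99 h in embryos 26-78. HD_v1_tr_02872 led the list in both 98 h embryos and was chosen after its values were seen. It made up 3.375% of the RNA counted in embryo 25 and 3.309% in embryo 77, against 0.21 to 0.593% and 0.00766 to 0.775% in the other late embryos of each stretch. At 70-79 h it held 0.0547 to 0.811%, against 0.0064 to 0.122% at 47-56 h (log2 change 2.51, edgeR adjusted p = 0.00111). The other 130 higher genes took 4.855% in embryo 25, against 3.294 to 4.698% in the others of embryos 1-25, and 4.553% in embryo 77, inside the range of 3.85 to 5.212% in the others of embryos 26-78. With 1 embryo per hour in each stretch, no test of this hour was made.

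The embryos left out by the rule were read outside their leading transcript. Embryo 49 (70 h) had 8971 such counts, 0.658% of them on the higher and 1.59% on the lower genes. Embryo 58 (79 h) had 51397, with 4.50% on the higher and 1.47% on the lower genes.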
